A study of Mus musculus with 6 samples.

Results

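The genes of the G protein gamma subunits were compared between Meis1cko and control dorsal root ganglia (DRGs), which hold the cell bodies of somatosensory neurons. The family comprised 10 genes, Gng2, Gng3, Gng4, Gng5, Gng7, Gng8, Gng10, Gng11, Gng12 and Gng13, taken by their symbols in the annotation of the array. For 9 of them the array held 16 probe sets listed for the gene alone, of 18193 genes and 45037 tested probe sets in all. The 3 probe sets that list Gng5 also list its pseudogene Gng5-ps, so that no value is given for Gng5. The family was chosen by the intensities of Gng4 and Gng8 in this comparison, and all differences between genotypes are therefore a description of these arrays. Each gene is represented by its brightest probe set, which was selected on the mean log2 intensity over all 6 arrays, and the other probe sets are given beside it.

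The data come from 3 Meis1cko and 3 control mice at P60 (postnatal day 60), with total RNA of cervical, thoracic and lumbar DRGs on 1 Affymetrix mouse genome array per mouse. Meis1cko mice, labelled Meis1 mutant, carry a floxed Meis1 allele from which Cre under the Nav1.8 promoter removes an exon of the homeodomain. This Cre is known to be active in most nociceptors. Other neurons, glia, vessels and connective tissue contribute RNA to each array too, and in which cells the allele was recombined was not tested here. The controls of the behavioural assays of the study were littermates with the floxed allele (Meis1 F/F), and the alleles of the control mice of these arrays are not given in the sources used here. In whole ganglia, a smaller number of cells of a type and less RNA per cell cannot be told apart. Meis1 itself had intensities of 109.7, 144 and 90.2 in the control mice and 66.0, 72.1 and 64.2 in the Meis1cko mice on its brightest probe set. The genotypes did not overlap there, and the log2 fold change was -0.74 (SE 0.18), while its other 2 probe sets had differences of -0.16 and 0.13. Whether they match the removed exon was not analysed here. The replicate 3 arrays of both genotypes stood apart from the other 4, since their deviations from the group means correlated at -0.60 to -0.52 with those of arrays of another number in the other genotype, so that differences are also given without them.

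Heterotrimeric G proteins couple receptors of the cell surface to channels and enzymes. The alpha subunit binds GTP, and the beta and gamma subunits form a stable dimer that is anchored in the membrane by a lipid on the C terminus of gamma. The free beta gamma dimer opens inwardly rectifying potassium channels, inhibits N- and P/Q-type calcium channels and regulates phospholipase C beta and adenylyl cyclases. In sensory neurons this is the route by which opioid and other Gi/o-coupled receptors reduce excitability and transmitter release. The gamma subunits are small proteins that differ in lipid anchor and in tissue. Gng2 and Gng3 are major forms of the nervous system, Gng4 is mostly a brain form, Gng7 is known from the striatum, Gng8 and Gng13 from olfactory or taste cells, and Gng5, Gng10 and Gng12 are found in many tissues.

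The sequence before the start sites is shown for 4 of the genes, since Meis1 is a transcription factor of the TALE homeodomain class. Gng4 and Gng8 are shown because they had the largest differences between genotypes. Gng3 and Gng7 are shown because theirs were the only windows of the family with the hexamer bound by Meis factors, TGACAG, on either strand. The 250 bases before each start site were taken from the RefSeq promoter table of GRCm38.p6, in which 13 windows matched 9 of the 10 genes, all but Gng11. They are written 5′ to 3′ on the strand of the gene, with the hexamer or its reverse complement CTGTCA in capitals.

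Gng4 (chr13:13783809-13784058, plus strand): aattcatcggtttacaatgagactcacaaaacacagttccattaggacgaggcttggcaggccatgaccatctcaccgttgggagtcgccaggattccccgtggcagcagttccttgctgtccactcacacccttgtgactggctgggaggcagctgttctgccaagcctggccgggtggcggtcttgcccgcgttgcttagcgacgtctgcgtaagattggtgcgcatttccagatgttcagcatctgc

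Gng8 (chr7:16891536-16891785, plus strand): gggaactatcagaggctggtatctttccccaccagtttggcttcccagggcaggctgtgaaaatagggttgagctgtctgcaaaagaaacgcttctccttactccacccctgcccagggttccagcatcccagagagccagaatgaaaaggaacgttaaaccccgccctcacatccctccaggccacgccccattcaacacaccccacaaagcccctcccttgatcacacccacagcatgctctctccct

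Gng3 (chr19:8839247-8839496, minus strand): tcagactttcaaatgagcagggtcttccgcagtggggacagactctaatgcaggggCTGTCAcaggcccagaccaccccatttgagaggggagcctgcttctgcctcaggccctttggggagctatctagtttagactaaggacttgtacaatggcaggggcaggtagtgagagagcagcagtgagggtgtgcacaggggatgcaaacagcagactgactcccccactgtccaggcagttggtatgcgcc

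Gng7 (chr10:81001366-81001615, minus strand): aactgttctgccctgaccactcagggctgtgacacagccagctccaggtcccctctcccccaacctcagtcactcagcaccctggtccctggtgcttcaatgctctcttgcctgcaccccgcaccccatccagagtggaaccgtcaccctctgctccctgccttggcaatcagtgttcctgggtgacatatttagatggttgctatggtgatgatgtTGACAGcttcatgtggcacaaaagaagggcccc

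The hexamer lies 194 bases before the start of Gng3 and 33 bases before a start of Gng7, and was found in 2 of the 13 windows of the family. Among all windows of this length in the table, 15.9% held it. The log2 fold change (Meis1cko minus control) was -0.07 for Gng3 (SE 0.13) and -0.01 for Gng7 (SE 0.17). A match is a property of the letters in a window, and its absence from the 2 Gng4 windows and those of Gng8 and Gng10 says only that these letters are not there.

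Gng4 had the largest difference of the family, and it appeared on some of its probe sets only. On the brightest Gng4 probe set (1447669_s_at) the control mice had intensities of 168, 193 and 127 and the Meis1cko mice 634, 409.7 and 272, in the order of replicates 1, 2 and 3. Every Meis1cko mouse lay above every control mouse, and the Meis1cko mice differed more among themselves than the control mice did. Control mice averaged 162 ± 33.4 and Meis1cko mice 439 ± 182 (SD, n = 3 each). This is a difference of 1.37 on the log2 scale (SE 0.31), or 2.59-fold. The annotation lists this probe set for Gng4 alone, although the ending _s_at marks probe sets whose probes can match transcripts of more than 1 gene.

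On the dimmest Gng4 probe set (1417943_at) the control mice had 31.4, 34.6 and 38.2 and the Meis1cko mice 101, 73.2 and 51.7. The genotypes again did not overlap, and all control values lay below the median intensity of the arrays, which was between 62.5 and 65.5. The log2 fold change was 1.07 (SE 0.24). The remaining probe set of Gng4 (1417944_at) had 149, 139.6 and 155 in control and 119.8, 146 and 171 in Meis1cko mice, a difference of -0.04 in log2 intensity (SE 0.15). Here the genotypes overlapped. Within each array, the log2 intensity of the brightest probe set exceeded that of this overlapping probe set by 0.17, 0.46 and -0.30 in the control mice and by 2.40, 1.49 and 0.67 in the Meis1cko mice. The probe sets of Gng4 thus had unequal differences between genotypes, and the parts of the transcript they match were not analysed here.

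**Figure D1:**
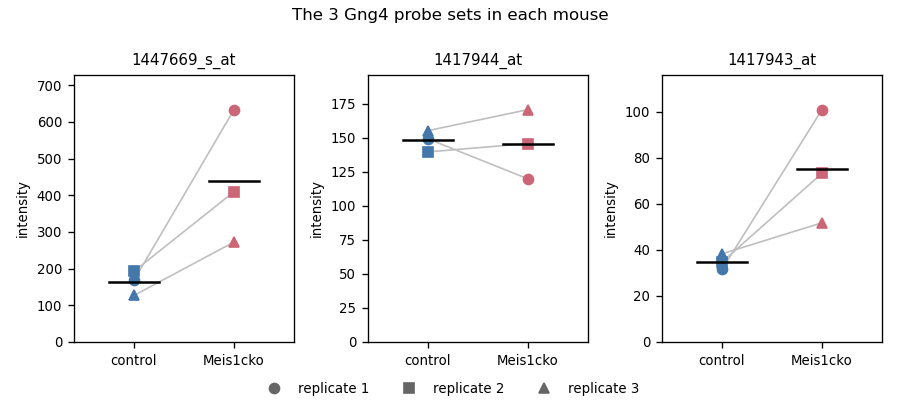
Normalized intensity (linear axes from 0) of the 3 Gng4 probe sets, from the brightest on the left to the dimmest on the right, for the individual control and Meis1cko mice. Symbols mark the replicate number, grey lines join arrays of the same number and black bars are group means. The Meis1cko mice lie above the control mice on 1447669_s_at (272 to 634 against 127 to 193) and on 1417943_at (51.7 to 101 against 31.4 to 38.2), and overlap with them on 1417944_at.

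A measure of RNA integrity moved with the brightest Gng4 probe set within both groups. The array measures Actb near both ends of its transcript, and the log2 excess of the 3′ over the 5′ signal grows as RNA degrades or is copied incompletely. It was 1.66, 1.32 and 0.44 in Meis1cko replicates 1, 2 and 3 and 1.23, 1.30 and 0.42 in the control replicates. The control mice followed the same order on the brightest Gng4 probe set, while on the dimmest the control mouse with the lowest excess had the highest intensity, 38.2. The Meis1cko mouse with the highest excess also had the highest Gng4 intensity on both probe sets that differed, and the one with the lowest had the lowest. On the overlapping probe set (1417944_at) the order was the reverse in both groups, with 119.8, 146 and 171 in Meis1cko replicates 1, 2 and 3. The part of RNA integrity in the Gng4 values, and in the unequal differences of its probe sets, was not tested. With this log2 excess as a covariate in limma, an alternative chosen after the data were seen, the log2 fold change of Gng4 was 1.24 on the brightest probe set and 1.01 on the dimmest. Without both replicate 3 arrays, which stand apart in this measure, it was 1.5 and 1.38. In pairs of the same replicate number the brightest probe set was higher in the Meis1cko mouse by 1.92, 1.09 and 1.11 on the log2 scale.

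Gng8 had the next largest difference, with lower intensities in Meis1cko DRGs. Its single probe set (1457755_at) had 289, 283 and 279 in the control mice and 149.6, 197 and 161 in the Meis1cko mice. The control mice were close to each other and every Meis1cko mouse lay below them. Control mice averaged 284 ± 5.06 and Meis1cko mice 169 ± 24.9 (SD, n = 3 each), so that control DRGs were 1.69-fold higher. The log2 fold change was -0.76 (SE 0.14). Within pairs of the same number the log2 differences were -0.95, -0.52 and -0.80. Without both replicate 3 arrays the log2 fold change was -0.74, and with the Actb covariate -0.76. Markers of olfactory and taste cells, which Gng8 or Gng13 are known from, were also measured. Of these 3 only the olfactory marker protein gene Omp was above the median intensity. Its means were 97.7 for control and 86.7 for Meis1cko DRGs. The 3 markers summed to 151 to 160.3 in control and 127 to 158 in Meis1cko mice.

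Gng10, which encodes a broadly found gamma subunit, was also lower in Meis1cko DRGs, without overlap. The control mice had 1594, 1355 and 1471 and the Meis1cko mice 1328, 997 and 1094. The gap between the groups was small, from 1328 to 1355. The log2 fold change was -0.38 (SE 0.15), with -0.26, -0.44 and -0.43 within pairs and -0.35 without both replicate 3 arrays. This is under the 1.5-fold threshold of the methods of the study.

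The major neuronal forms did not separate the genotypes. Gng3, a neuronal gamma subunit gene, had 3738, 3176 and 3485 in the control mice and 3483, 2944 and 3481 in the Meis1cko mice, with overlap. Gng2 had 2740.4, 2987 and 3487 in control and 2960.1, 3149 and 2826 in Meis1cko mice on its brightest probe set, a log2 fold change of -0.04 (SE 0.13) that was 0.09 without both replicate 3 arrays. The control mice lay on both sides of the Meis1cko mice.

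The other 3 probe sets of Gng2 had log2 fold changes of -0.15, -0.28 and -0.08, and none separated the genotypes. One of them (1418452_at) followed the replicate number, with 1091 and 732 in control and Meis1cko replicate 3 and 142 to 179.9 in the other 4 mice. Its log2 intensity was 2.47 higher on the replicate 3 arrays than on the others, the largest such difference of the 16 probe sets, and its log2 fold change had an SE of 0.87. The log2 fold change was -1.03 without Meis1cko replicate 3 and 0.62 without control replicate 3. The 3′ excess of Actb was also lowest on these replicate 3 arrays, and its part in the Gng2 values was not tested.

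Of the remaining genes, Gng11, Gng12, Gng7 and Gng13 had overlapping groups. Gng11, which carries a farnesyl rather than a geranylgeranyl anchor, had 678, 472 and 398 in control and 566, 438 and 345 in Meis1cko mice, with a difference of -0.19 on the log2 scale (SE 0.25). The Meis1cko mouse was lower in each of the 3 pairs, by less than the mice of a genotype differed. Gng12 had 356, 351 and 336 in control and 307, 339 and 290.4 in Meis1cko mice, a log2 fold change of -0.16 (SE 0.12), and its other probe set had -0.15. Only Meis1cko replicate 2 lay among the control mice on the brighter probe set. Gng7, a striatal form, had 97.5, 94.6 and 67.3 in control and 77.8, 91.8 and 85.8 in Meis1cko mice. Gng13, a gamma subunit of taste cells, had 54.3, 52.1 and 62.8 in control and 49.0, 59.4 and 63.9 in Meis1cko mice. The genotypes overlapped in both, and the log2 fold changes were -0.01 and 0.02. Both Gng13 probe sets had means below the median intensity of all probe sets (64.8), so that its level in these ganglia is less certain than that of the brighter genes.

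**Figure D2:**
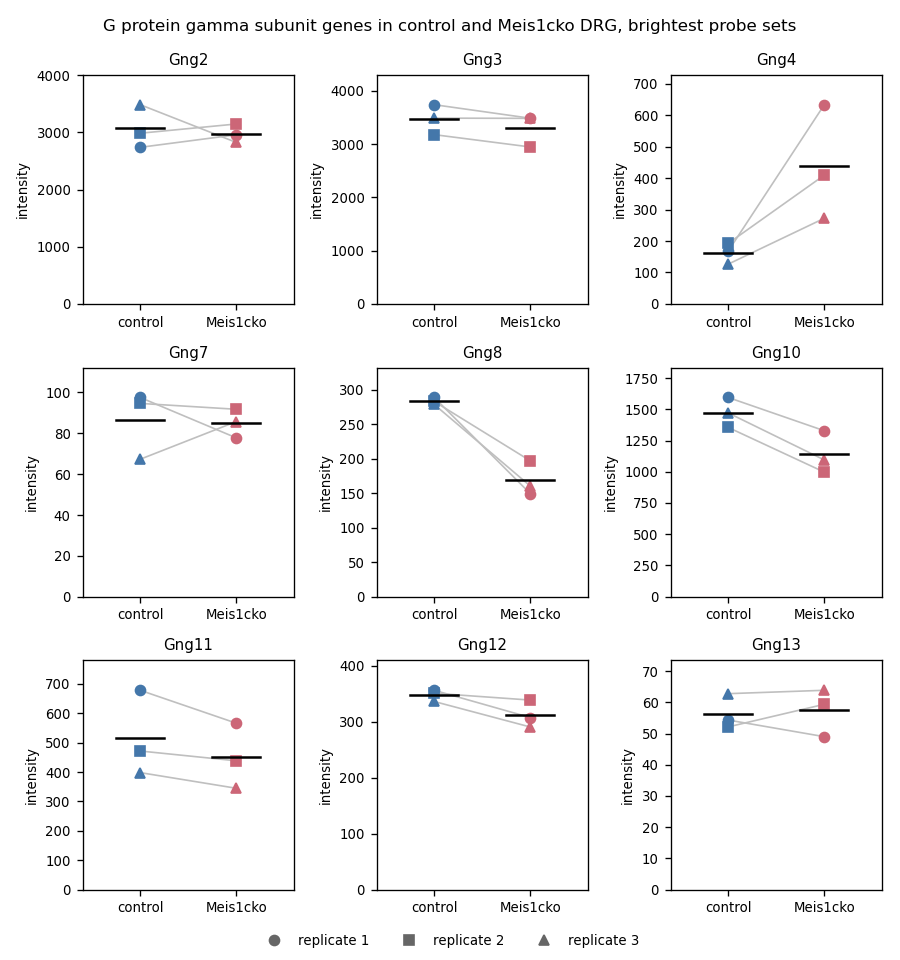
Normalized intensity (linear axes from 0, a scale of its own for each gene) of the brightest probe set of 9 gamma subunit genes in 3 control and 3 Meis1cko mice at P60. Symbols mark the replicate number, grey lines join arrays of the same number and black bars are group means. The genotypes are apart for Gng4 (higher in Meis1cko), Gng8 and Gng10 (lower in Meis1cko) and overlap for the other genes.

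None of the 16 probe sets passed an adjusted p of 0.05 in limma, where 0.0155% of all tested probe sets did, nor with the replicates paired by number, where 0.0822% did. At an unadjusted p under 0.05 in limma there were 4 of 16, those of Gng8 and Gng10 and both differing probe sets of Gng4, with 2.32% of all probe sets. The methods' t-test left 3 at an unadjusted p under 0.05, beside 3.04% of all probe sets, and none after Benjamini-Hochberg adjustment. At a fold change over 1.5 and an unadjusted p under 0.05, the thresholds of the study, 2 probe sets of Gng4 were higher and that of Gng8 was lower, where 0.318% of all probe sets were higher and 0.357% lower. The groups did not overlap in 2 higher and 2 lower probe sets of the family, and in 3.21% and 3.43% of all. Since the family was put forward with the Gng4 and Gng8 values of this comparison in view, nothing is read from these counts.

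Most of the family had small differences. Of the 16 probe sets 13 had a log2 fold change below 0, with a median of -0.08 beside -0.01 over all tested probe sets. By brightest probe set, 7 of 9 genes were below 0, with a median of -0.07 beside -0.01 for all genes. The share of all probe sets below 0 was not counted, so nothing is read from these counts. The median SD of log2 intensity within genotypes was 0.20 for the 16 probe sets and 0.19 for all tested probe sets, so that the mice varied in these genes about as much as in others. Brightness differs between probe sets for reasons of probe design, and levels are not ranked between the genes. By brightest probe set 8 of the 9 genes, all but Gng13, lay at or above the median intensity.

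**Figure D3:**
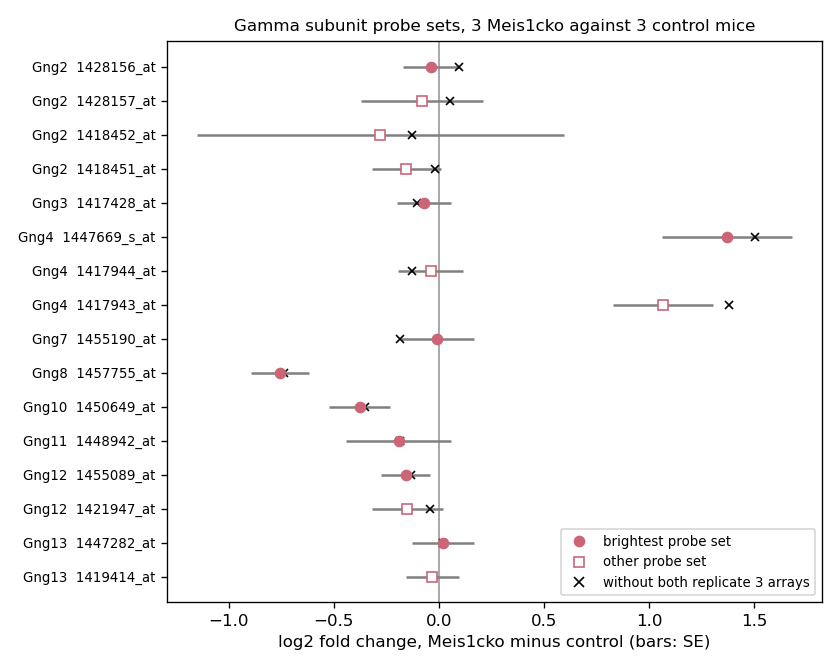
Log2 fold changes (Meis1cko minus control, bars are standard errors from limma, 3 mice per genotype) of the 16 probe sets listed for a gamma subunit gene alone. Filled circles are brightest probe sets, open squares the others, and crosses the value without both replicate 3 arrays: Gng4 stands at 1.37 and 1.07 on probe sets to the right and at -0.04 on the other, Gng8 at -0.76, and 1418452_at of Gng2 has the widest error (0.87).

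The retinal gamma subunit genes of the array, which are outside the family described here, were dim. Gngt1, of rods, averaged 17.9 in control and 22.3 in Meis1cko mice, below the 25th percentile of the arrays (20.8 to 22.6) in the control mice. Gngt2, of cones, had 28.0 and 29.0, and both overlapped between genotypes.

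The beta subunit genes, whose products pair with the gamma subunits, did not separate the genotypes. Gnb1, the partner in most brain dimers, had 4539.6, 4342 and 4464 in the control mice and 4595, 4329.7 and 6472 in the Meis1cko mice, with a difference of 0.18 on the log2 scale (SE 0.17). The single high value was that of Meis1cko replicate 3. The other 2 probe sets of Gnb1 had 0.28 and 0.30 with overlap, and were higher in the Meis1cko mouse of each of the 3 pairs. Gnb2, Gnb4 and Gnb5 had log2 fold changes of -0.09, 0.03 and -0.06, and Gnb3, which is dim here at a control mean of 50.6, had 0.01. The alpha subunit genes had a range from -0.18 to 0.15 over 15 measured genes, with a median of -0.03. Those with the smallest p were the inhibitory Gnai1 at 0.15 and Gnai3 at -0.18 and the stimulatory Gnal at 0.14, and none of the 15 separated the genotypes. Their other probe sets had -0.15 and 0.07 for Gnai1, 0.15 for Gnai3, and -0.06 and 0.04 for Gnal.

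Genes on either side of the beta gamma dimer were compared between genotypes as well. Of the 76 partner genes listed, which cover beta and alpha subunits, regulators, effectors, Gi/o-coupled receptors and enzymes that attach or trim the lipid anchor, 70 were measured. By brightest probe set, none passed the adjusted threshold of limma, paired or unpaired, and none passed the thresholds of the study, where 0.324% of all genes were higher and 0.456% lower. The groups did not overlap in 2 higher and 3 lower partner genes, and in 3.12% and 3.82% of all genes. Over all 184 probe sets of these genes none was called, where 0.0155% of all tested probe sets were, or 0.0822% with the replicates paired. Only 1 passed the thresholds of the study, where 0.318% of all probe sets were higher and 0.357% lower. It was a dim probe set of the galanin receptor gene Galr1 that was lower. The groups did not overlap in 3 higher and 6 lower of the 184, and in 3.21% and 3.43% of all probe sets.

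Among the 23 effectors, the potassium channel gene Kcnj3, a direct target of beta gamma, had 241, 251 and 222 in control and 309.9, 264 and 252 in Meis1cko mice, a log2 fold change of 0.21 (SE 0.13). Plcb1, which encodes a phospholipase C beta, had 909.9, 792 and 847 in control and 753, 686 and 633 in Meis1cko mice, a log2 fold change of -0.30 (SE 0.12), while its other 4 probe sets had between -0.20 and 0.05. On these probe sets Kcnj3 was slightly higher and Plcb1 lower in every Meis1cko mouse, and the other 3 of Kcnj3 had 0.02, 0.04 and 0.06 with overlap. The adenylyl cyclase gene Adcy7 had 0.59 (SE 0.31) with overlap, although the Meis1cko mouse was higher in each of the 3 pairs, and its other 2 probe sets had 0.01 with overlap and 0.55 without. The median of the effectors was 0.07. The 11 measured regulators had a median of 0.01, with -0.16 for Rgs9, 0.12 for Rgs7bp and 0.16 for the chaperone gene Ric8a. Their other probe sets had -0.16 and -0.12 for Rgs9, 0.08 and -0.05 for Rgs7bp, and -0.08, -0.08 and -0.02 for Ric8a.

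Of the 11 measured Gi/o-coupled receptor genes, the serotonin receptor gene Htr1d was higher in every Meis1cko mouse, with 527, 524 and 530.5 in control and 599, 603 and 549 in Meis1cko mice, while its other 2 probe sets overlapped, at -0.12 and 0.15. The kappa opioid receptor gene Oprk1 (log2 fold change -0.41) and Galr1 (-0.22), both named after their values were seen, were lower without overlap, and both lay below the median intensity. The other probe set of Oprk1 had -0.13 with overlap. The Galr1 probe set that passed the thresholds of the study had 41.1, 43.7 and 45.2 in control and 11.1, 27.6 and 21.0 in Meis1cko mice, a difference of -1.22 on the log2 scale (SE 0.31). The remaining one had -0.34 with overlap. The neuropeptide Y receptor gene Npy1r had 0.54 (SE 0.24) and the mu opioid receptor gene Oprm1 0.28 (SE 0.17). Both overlapped between genotypes and were higher in the Meis1cko mouse of each of the 3 pairs, and the other probe set of Npy1r had -0.16 and those of Oprm1 0.15, 0.07 and 0.01. The prenyltransferase genes Fnta, Fntb and Pggt1b had log2 fold changes of -0.09, -0.07 and 0.05, and the CAAX processing enzyme genes Rce1 and Icmt had 0.21 and -0.05.

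**Figure D4:**
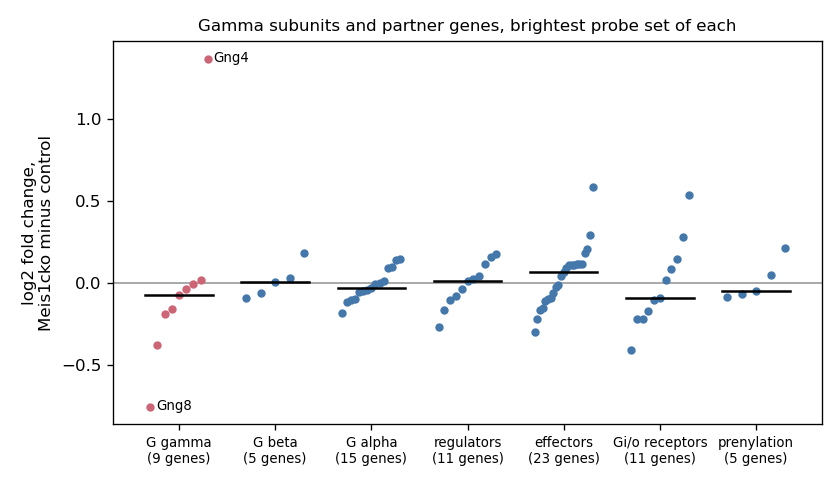
Log2 fold changes (Meis1cko minus control) of the brightest probe set of each gamma subunit gene (red) and of the measured partner genes (blue), with black bars at the median of each list. Gng4 stands at 1.37 and Gng8 at -0.76, and the brightest probe sets of the partner lists run from -0.41 to 0.59. The family was put forward with the Gng4 and Gng8 values in view, so nothing is read from their place outside this range. A dim Galr1 probe set that is not shown had -1.22.

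The makeup of the ganglia was checked by marker lists. All 7 sensory neuron markers were bright, and their summed intensity was 52787 to 61291 in control and 51839 to 62831 in Meis1cko mice. Their log2 fold changes ran from -0.67 to 0.20 by brightest probe set, with 5 of 7 above 0. The lowest was Pou4f1, with 1056, 1184 and 729 in control and 911, 937 and 264 in Meis1cko mice. Its SE was 0.48 and the groups overlapped, although the Meis1cko mouse was lower in each of the 3 pairs. The other probe set of Pou4f1 had 0.30. The 6 measured nociceptor markers summed to 22155 to 22833 and 21448 to 24647, and their median log2 fold change was 0.02. Of these only Scn10a did not overlap, with 752, 696 and 804 in control and 1213, 950 and 993 in Meis1cko mice. Its log2 fold change was 0.48 (SE 0.14). The 7 markers of myelinated neurons summed to 38002 to 40915 and 40158 to 43644, higher in the Meis1cko mouse of each of the 3 pairs. All 7 had log2 fold changes above 0 by brightest probe set, with a median of 0.12, and Ntrk3 (0.48) and Kcna1 (0.19) did not overlap. The other 7 probe sets of Ntrk2 had between -0.26 and 0.30. The other 7 probe sets of Ntrk3 had between -0.34 and 0.06, and the other 3 of Kcna1 had 0.21, 0.23 and 0.12. The 6 fibroblast markers summed to 10569 to 17256 in control and 7590.2 to 9616 in Meis1cko mice, and the 4 melanocyte markers to 353 to 471 and 193 to 274, both without overlap. All 6 fibroblast markers had log2 fold changes below 0 by brightest probe set, with a median of -0.56. The other probe set of Dcn had 0.20 and those of Pdgfra -0.31 and 0.10, while those of Col1a1, Col1a2 and Col3a1 were below 0. Lum (-1.34), Col3a1 (-0.73) and Col1a2 (-0.58) were lower without overlap. Of the melanocyte markers 2 were above and 2 below 0, and the difference of the sum was that of Tyrp1. Tyrp1 (-1.28) was lower and the dim Dct (0.25) higher without overlap. Lum, Col3a1 and Tyrp1 passed the thresholds of the study. With the replicates paired by number, Lum and Tyrp1 were called in limma, at adjusted p of 0.0072 and 0.0088. The 6 endothelial markers summed to 715 to 874 and 703 to 946, the 4 mural cell markers to 3882 to 5779 and 4244 to 7658, the 5 macrophage markers to 686 to 1215 and 478 to 877, and the 5 skeletal muscle markers to 229 to 2788 and 371 to 874, all with overlap. Of the mural cell markers all 4 were above 0 by brightest probe set. Acta2 (0.76), whose other 2 probe sets had -0.06 and -0.26, did not overlap and passed the thresholds of the study. The macrophage sum was lower in the Meis1cko mouse of each pair, with a median of -0.39, and Mrc1 (-0.90) passed those thresholds with overlapping groups. The 5 satellite glia markers summed to 14049.6 to 16274 and 15139 to 17512 and the 3 Schwann cell markers to 24033 to 26399.8 and 22724 to 24143, also with overlap. Among them Kcnj10 (-0.36) of satellite glia and Pmp22 (-0.13) of Schwann cells were lower without overlap. The Schwann cell sum was lower in the Meis1cko mouse of each of the 3 pairs. The 4 oligodendrocyte and astrocyte markers summed to 142 to 169 and 142 to 209, and Mog, which defines oligodendrocytes, averaged 8.76 and 8.90, under the 25th percentile of every array. No marker was listed at 0. The part of any of these cell types in the Gng4, Gng8 and Gng10 values was not tested.

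Genes whose pattern was most like that of Gng4 or Gng8 were sought by Pearson correlation of log2 intensities over the 6 arrays, among 12177 other genes at or above the median intensity. The 3 nearest to Gng4 were Urb2, Col18a1 and Adamts5, with r between 0.98 and 0.99, and 151 genes had r above 0.9. The nearest to Gng8 were Rnaseh2a, 8430429K09Rik and Pop4, again with r of 0.99, and 53 genes were above 0.9. All 6 separated the genotypes, the first 3 higher and the others lower in Meis1cko DRGs, with log2 fold changes from 0.25 to 0.56 and from -0.58 to -0.26. These genes were picked for likeness to Gng4 or Gng8, which separate the genotypes on the same arrays, so their own separation is no further result. With 6 arrays, which share genotype and replicate number, such values of r describe these libraries alone.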

How the data were processed

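Total RNA of DRGs from 3 Meis1cko and 3 control mice at P60 was hybridized to 1 Affymetrix array each. The authors scanned the arrays, processed the images in the Affymetrix command console and GeneSpring, and deposited normalized intensity values on a linear scale. How probes were summarised and normalized is not given in the sources used here, which limits what can be said of dim probe sets. All values are above 0, and the number of arrays limits the precision.

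Intensities were taken to log2 without an offset, and 64 control probe sets were left out. Symbols came from the platform annotation, in which 34945 of the 45037 tested probe sets had a single gene. Meis1cko and control arrays were compared with limma 3.58.1 (lmFit, eBayes) under R 4.3.3, with Benjamini-Hochberg adjustment over all 45037 probe sets, and the fit was tested on simulated data. The labels call the arrays biological replicates. Arrays of the same replicate number deviated together from their group means (correlations of 0.42, 0.54 and 0.77). Replicate 1 of each genotype also correlated with replicate 2 of the other, at 0.34 and 0.32. Replicate 3 thus stands apart more clearly than replicates 1 and 2 form pairs. The numbers were taken to pair the arrays, which the labels do not state, and the paired fit was run as an alternative.

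The family, the partner and marker lists and the tests were chosen with earlier results of these data known. The text names every gamma subunit, Meis1, every gene of lists of up to 5 partners and the 3 genes of smallest p of the longer lists among those at or above the median intensity. A planned comparison of the proteins was not run. Alternatives were the paired fit, an intensity trend, array weights, quantile normalization, centring on the 75th percentile, an offset of 16, a filter at the median, each array or both replicate 3 arrays left out, the methods' t-test, the mean of the probe sets of a gene and, added after seeing the data, an Actb covariate.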

Additional observations from a re-analysis of the deposited data

How the results depend on the processing

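No gamma subunit probe set was called at the adjusted threshold in limma, nor with the replicate block or in any fit that left out arrays, and 3 passed the thresholds of the study, or 2 under array weights and under the filter at the median, which leaves out the dimmest Gng4 probe set. The exceptions were array weights, which called 2 (both differing probe sets of Gng4, adjusted p of 0.0183 and 0.0327 in limma), and the Actb covariate, which called 1 (Gng4, 0.0263). The array weights gave Meis1cko replicate 2 a weight of 7.55 against 0.34 to 2.50 for the others, and under them the Gng8 probe set no longer passed the thresholds of the study, at -0.56. Over all probe sets, 7 were called in limma, 37 with the replicate block, 177 under array weights, 11 after quantile normalization, 1 with the offset, 4 with the filter (1 higher and 3 lower, beside 4 and 3), 26 without both replicate 3 arrays, 0 by the methods' t-test, 36 with the covariate and 1 to 15 with an array left out. The causes were not tested.

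The log2 fold change of a probe set can move in 12 of the alternatives, and in these Gng4, Gng8, Gng10 and Gng12 kept their direction by brightest probe set. Gng4 ran from 1.06 without Meis1cko replicate 1 to 1.67 without Meis1cko replicate 3, and was 0.80 with its 3 probe sets averaged. Gng8 ran from -0.87 to -0.56. Gng3 and Gng11 turned sign in 1 of the 12, Gng2 in 3, Gng13 in 4 and Gng7 in 5. No scaling moved the median of all probe sets by more than 0.02 on the log2 scale. Without a deposited detection call, the signal over background of the dim probe sets of Gng4, Gng7 and Gng13 is unknown.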
